A study of Mus musculus with 8 samples.

Results

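This section describes 10 genes of one extracellular proteolysis system in the mouse colon, out of 26008 genes in the deposited table. They are Adamts15, the 6 other proteases Adamts1, Adamts4, Adamts5, Adamts8, Adamts9 and Adamts20, the proteoglycans Vcan and Bcan, and the inhibitor Timp3. All 10 were found by gene symbol and all 10 passed the minimum mean level used for testing. Adamts15 was chosen because its level differed between the genotypes in these same libraries, so its genotype difference is given as a description without a test. The other 9 genes were chosen around it by known function, with earlier results of these data known.

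The libraries were poly-A RNA-seq of colon from 8 male mice, 4 per group, with 1 mouse per library and no pooling. Recipients of strain C57BL/6JRj were irradiated at 7 weeks of age and received bone marrow from Penk-/- or Penk+/+ male donors aged 9 to 11 weeks, and the colons were taken 18 to 21 weeks after grafting. Penk encodes proenkephalin, the precursor of the enkephalin opioid peptides. In both groups the recipients themselves carried intact Penk, so the genotypes differed only in marrow-derived cells, and fibroblasts, epithelium and muscle were of recipient origin. In the whole tissue Penk had normalized counts of 453, 512, 616 and 531 in Penk-/- colons and 473, 496, 560 and 636 in Penk+/+ colons. These ranges overlapped, and since recipient cells also carry the gene, the values do not check the labels of the donor marrow.

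ADAMTS proteins are secreted zinc metalloproteases with thrombospondin repeats that tether them to the extracellular matrix. The members studied here belong to the branch that can cut the large hyaluronan-binding proteoglycans, of which versican, the product of Vcan, is the main one outside cartilage and brain. Versican and hyaluronan form a loose hydrated matrix around mesenchymal cells and smooth muscle, and its cleavage accompanies tissue remodelling. TIMP3, the product of Timp3, is bound to the matrix and inhibits several of these proteases.

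The coding sequence of the active site is shown for the 7 proteases, since it is the part that defines them as zinc proteases. Each line gives the 36 coding bases of the zinc-binding motif in the canonical transcript of GENCODE M39 on GRCm39, and the capitals mark the codons of the 3 histidines that hold the catalytic zinc.
Adamts15: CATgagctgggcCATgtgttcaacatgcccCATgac
Adamts1: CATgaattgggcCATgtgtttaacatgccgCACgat
Adamts4: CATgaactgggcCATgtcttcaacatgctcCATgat
Adamts5: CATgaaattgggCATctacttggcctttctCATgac
Adamts8: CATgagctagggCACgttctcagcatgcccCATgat
Adamts9: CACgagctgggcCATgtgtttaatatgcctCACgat
Adamts20: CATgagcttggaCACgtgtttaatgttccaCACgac
The motif is split by an intron in every one of the 7 genes. The junction lies after base 10 in Adamts15, Adamts1, Adamts4, Adamts5 and Adamts8, and after base 17 in Adamts9 and Adamts20, the closely related pair of long family members. Against Adamts15, the same base stood at 32 of the 36 positions in Adamts4, at 30 in Adamts1 and Adamts9, at 29 in Adamts8, at 27 in Adamts20 and at 22 in Adamts5. In Adamts15 the motif spans chr9:30822548-30822986 on the minus strand, from exon 2 into exon 3, intron included.

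The substrate site is shown because it is the bond these proteases are best known for cutting in versican. The capitals mark the codons of the glutamate and the alanine on either side of the cleaved bond.
Vcan: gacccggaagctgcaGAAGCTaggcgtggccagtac
These 36 bases lie in exon 8 of the canonical Vcan transcript, at chr13:89841322-89841357 on the minus strand of GRCm39. Only 2 of the 9 protein-coding Vcan transcripts in the annotation contain them, and the counts used here are per gene, so transcripts with and without the site were not separated.

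The genes lie on 8 autosomes, and 4 of them form pairs of neighbours. Adamts15 (ENSMUSG00000033453, chr9:30810451-30833863, minus strand) and Adamts8 (ENSMUSG00000031994, chr9:30853809-30875134, plus strand) lie head to head, 19.9 kb apart. Adamts1 (chr16:85590579-85600009) and Adamts5 (chr16:85653061-85698716) lie 53.1 kb apart on the same minus strand. Adamts4 lies at chr1:171077986-171089841, Adamts9 at chr6:92749680-92920520, Adamts20 at chr15:94166170-94363299, Vcan at chr13:89803431-89890814, Timp3 at chr10:86136236-86185371 and Bcan at chr3:87894835-87910177.

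The libraries held 33122556 to 50677005 reads assigned to genes. The values are normalized counts, that is reads divided by one scaling factor per library, and no pair of libraries agreed within sampling noise. The libraries Penk-/- 3 and Penk+/+ 4 stood apart by their content of Pbsn, a secretory protein of the prostate, with 105658 and 111024 normalized counts against 0 to 13425 in the other 6. Since there was 1 such library in each group, differences are also given without both. Pbsn was also present in Penk+/+ 1 (13425), Penk-/- 2 (7638), Penk-/- 4 (4803) and Penk+/+ 2 (2398). The libraries that remain are therefore not free of it. Epithelial, smooth muscle, fibroblast, endothelial and immune markers were above 0 in every library, so the samples held epithelium together with muscle and stroma.

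Adamts15 was about 2 times as abundant in the colon of Penk-/- chimeras as in that of Penk+/+ chimeras. Its normalized counts were 4990, 4382, 4458 and 5360 in Penk-/- mice 1 to 4 and 2981, 2246, 2511 and 1940 in Penk+/+ mice 1 to 4. The lowest Penk-/- library thus lay above the highest Penk+/+ library. The means were 4798 ± 462 and 2419 ± 441 (SD, n = 4 each), a ratio of 1.98 and a log2 fold change of 1.0 on the log2(normalized count + 1) scale. Of the 19127 genes tested, 41 (0.214%), Adamts15 included, had a log2 fold change at least as high. Over all genes, 5.63% had genotype ranges that did not overlap (2.89% with the Penk-/- range above). Nothing is read from these shares or from the rank of Adamts15, which was chosen on this contrast.

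The following values describe the same contrast and are no independent support for it. Leaving out each library in turn gave Adamts15 log2 fold changes of 0.90 to 1.11. Without the Pbsn-rich libraries Penk-/- 3 and Penk+/+ 4 it was 0.93, and with the values scaled to the library total it was 1.06. Relative spread within a group was 9.64% of the mean in Penk-/- colons and 18.2% in Penk+/+ colons.

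**Figure D1:**
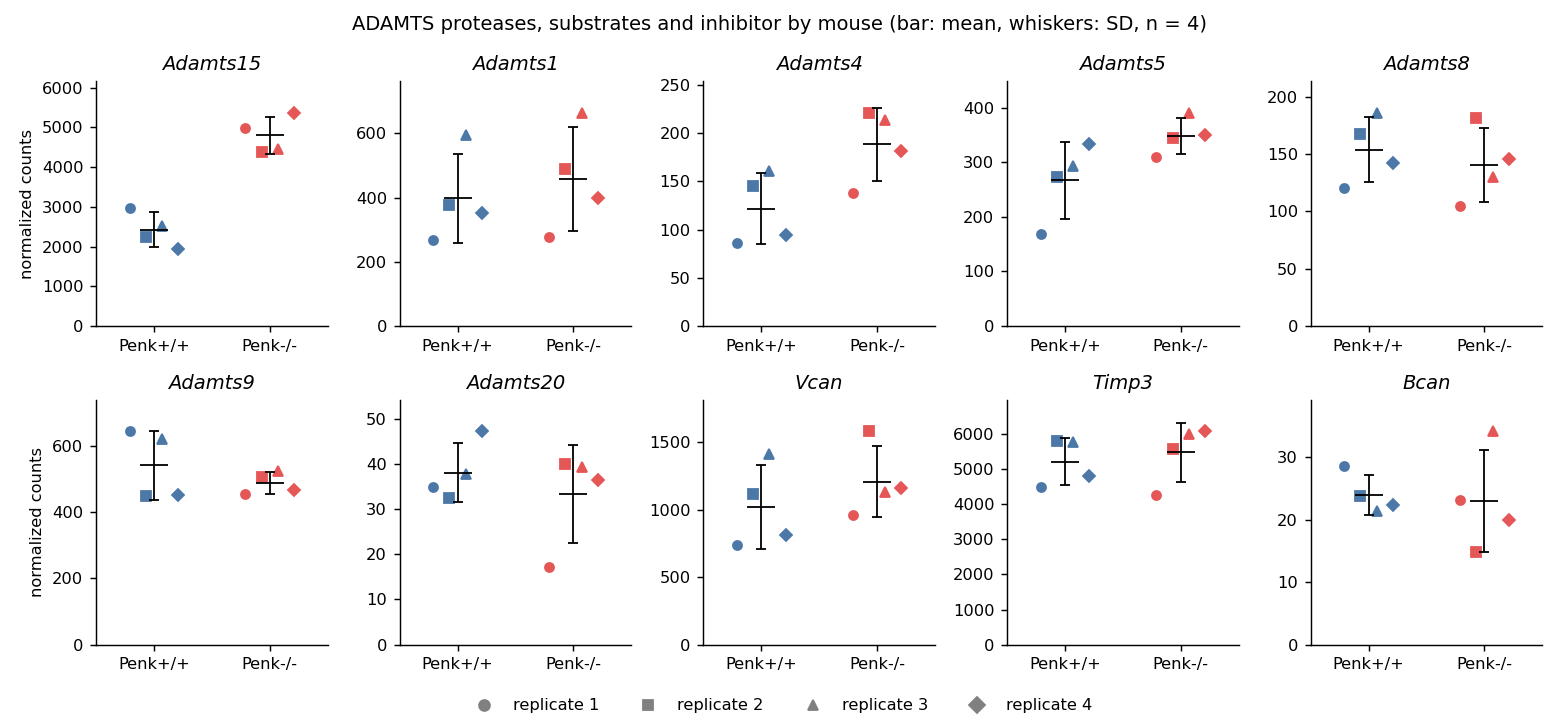
Normalized counts (y axis, from 0, one scale per gene) of the 10 genes in each of the 8 libraries, by genotype of the donor marrow (x axis); symbols mark the replicate number, bars the mean and whiskers the SD (n = 4). The genotype ranges are separate for Adamts15, from 4382 upward in Penk-/- colons and up to 2981 in Penk+/+ colons, and overlap for the other 9 genes.

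The other genes gave no call. In limma's moderated test on log2 values with Benjamini-Hochberg adjustment over 19127 genes, 0 genes (0%) passed an adjusted p of 0.05, and the smallest adjusted p was 0.132. At an unadjusted p of 0.05, 1842 genes (9.63%) passed, 822 of them higher (4.3%) and 1020 lower (5.33%) in Penk-/- colons. On recovered reads of the 7 libraries used in count models (all except Penk-/- 1), edgeR called 5 genes and DESeq2 called 315. On the same 7 libraries limma called 6. Of the 9 genes besides Adamts15, Adamts4 alone was below an unadjusted p of 0.05. The 10 genes had a median log2 fold change of 0.13 against 0.01 over all genes tested, with 6 higher and 4 lower in Penk-/- colons, where 51.1% of all genes were higher. The 6 other proteases, 3 higher and 3 lower, had a median of 0.03.

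Adamts4, an aggrecanase that also cuts versican, came second to Adamts15 in the size of its difference. Its normalized counts were 138, 221, 214 and 181 in Penk-/- colons and 85.9, 145, 160 and 94.3 in Penk+/+ colons. Libraries 2, 3 and 4 of the Penk-/- colons lay above all of the Penk+/+ colons, while Penk-/- 1 lay below Penk+/+ 2 and 3. The means were 189 ± 37.7 and 122 ± 37.0 (SD, n = 4 each) and the log2 fold change was 0.66 with a standard error of 0.24 (limma, adjusted p = 0.444). Without the Pbsn-rich libraries Penk-/- 3 and Penk+/+ 4 it was 0.49.

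Adamts5, the other main aggrecanase, was 310, 345, 390 and 349 in Penk-/- colons and 168, 274, 292 and 334 in Penk+/+ colons. Penk+/+ 4 alone of its group reached into the Penk-/- range. The log2 fold change was 0.42 with a standard error of 0.20 (limma, adjusted p = 0.536). It was 0.21 without Penk+/+ 1, the lowest library.

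Adamts1, a protease induced in inflamed and ovulating tissue, varied more within groups than between them. Its values were 278, 490, 664 and 399 in Penk-/- colons and 269, 377, 595 and 352 in Penk+/+ colons. The log2 fold change of 0.19 had a standard error of 0.29 (limma, adjusted p = 0.879), with a 95% interval from -0.46 to 0.84. The sign depended on the libraries used, since it was -0.01 without Penk-/- 3 and -0.05 without the Pbsn-rich pair.

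Adamts8, the neighbour of Adamts15 on chromosome 9, had a small difference of the opposite sign. It was 105, 182, 130 and 146 in Penk-/- colons and 121, 167, 186 and 142 in Penk+/+ colons, with ranges that overlapped almost fully. The log2 fold change was -0.14 with a standard error of 0.20 and a 95% interval from -0.58 to 0.30 (limma, adjusted p = 0.868). Leaving out 1 library gave -0.27 (without Penk-/- 2) to -0.0087 (without Penk-/- 1).

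Adamts9 and Adamts20 form the branch of the family that carries a C-terminal GON domain. Adamts9 was 454, 506, 526 and 466 in Penk-/- colons and 645, 451, 621 and 454 in Penk+/+ colons, where replicates 1 and 3 were high and replicates 2 and 4 were at the level of the Penk-/- libraries. Its log2 fold change was -0.13 with a standard error of 0.13 (limma, adjusted p = 0.794), and it was -0.04 without Penk+/+ 1 and -0.22 without Penk+/+ 2. Adamts20, whose loss causes a white belt in mice, was low in every library, at 17.2, 40.1, 39.2 and 36.5 in Penk-/- colons and 34.8, 32.3, 37.8 and 47.2 in Penk+/+ colons. Its log2 fold change of -0.25 had a standard error of 0.29 (limma, adjusted p = 0.832) and became 0.03 without Penk-/- 1.

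Among the substrates, Vcan was widely spread in both groups. Its normalized counts were 964, 1581, 1130 and 1158 in Penk-/- colons and 742, 1119, 1416 and 811 in Penk+/+ colons. The lowest values were those of Penk+/+ 1 and 4, but Penk+/+ 3 exceeded 3 of the Penk-/- libraries. The log2 fold change was 0.27 with a standard error of 0.21 and a 95% interval from -0.22 to 0.75 (limma, adjusted p = 0.737). It was 0.13 without Penk+/+ 1 or without Penk-/- 2, and 0.44 without Penk+/+ 3. Bcan, which encodes brevican, a proteoglycan of the nervous system, was near 24 in both groups, with 14.9 to 34.2 in Penk-/- and 21.5 to 28.6 in Penk+/+ colons. Its log2 fold change was -0.11 with a standard error of 0.27 (limma, adjusted p = 0.929), and it was 0.07 without Penk-/- 2 and -0.35 without the Pbsn-rich pair.

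The inhibitor Timp3 was the most abundant of the 10 genes and was close in both groups. Its values were 4283, 5585, 6004 and 6085 in Penk-/- colons and 4495, 5804, 5782 and 4827 in Penk+/+ colons. Library 1 was the lowest of its group in both genotypes. The log2 fold change was 0.07 with a standard error of 0.13 and a 95% interval from -0.22 to 0.35 (limma, adjusted p = 0.910). It crossed 0 without Penk+/+ 1 (-0.0038) and without the Pbsn-rich pair (-0.02). Without that pair the log2 fold changes of the remaining genes kept their sign, at 0.49 for Adamts5, -0.14 for Adamts8, -0.25 for Adamts9, -0.24 for Adamts20 and 0.20 for Vcan.

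**Figure D2:**
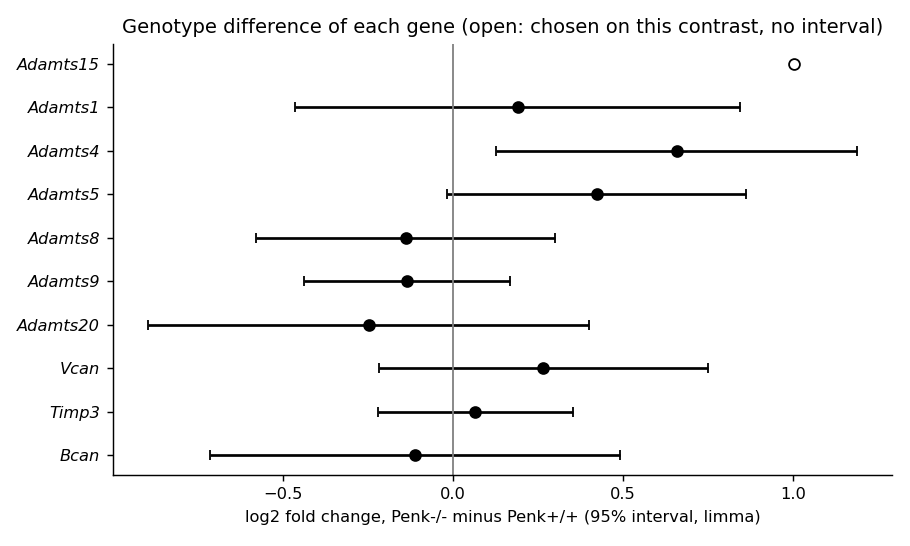
Log2 fold change of each gene, Penk-/- minus Penk+/+ (x axis), from limma on 8 libraries; filled points carry 95% intervals, and Adamts15, chosen on this contrast, is an open point at 1.0 without an interval. The intervals of 8 genes include 0, and that of Adamts4 runs from 0.13 to 1.19 before adjustment over all genes.

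To compare levels between genes, normalized counts were divided by the length of the canonical transcript in kb. On this per-kb scale the mean level over the 8 libraries was 1134 for Timp3, 597 for Adamts15, 88.4 for Vcan, 85.1 for Adamts1, 63.9 for Adamts9, 40.1 for Adamts8, 35.3 for Adamts4, 28.5 for Adamts5, 6.17 for Bcan and 4.46 for Adamts20. Adamts15 was thus the leading protease of the 7 in colon in both genotypes, with 794 in Penk-/- and 400 in Penk+/+ colons. Its level was 6.75 times that of Vcan, and its range over the libraries was separate from those of both its neighbours in the order, Timp3 and Vcan. The ranges were also separate between Adamts9 and Adamts8 and between Adamts5 and Bcan. All other neighbours overlapped, and Vcan was above Adamts1 in 5 of 8 libraries. Dividing by the length of all annotated exons instead kept Timp3 and Adamts15 in the first places (658 and 344), while Adamts1 (78.2) then stood above Vcan (67.4), Adamts5 (28.2) above Adamts4 (24.04) and Adamts20 (2.94) above Bcan (2.74). On that scale the ranges of Adamts9 and Adamts8 overlapped.

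The summed per-kb level of the 7 proteases was 1063 ± 55.1 in Penk-/- and 646 ± 84.6 in Penk+/+ colons (SD, n = 4 each), without overlap. This sum holds Adamts15, which was chosen on this contrast, so its separation is no result about the proteases as a family. Without Adamts15 the sum was 269 ± 52.4 and 246 ± 47.8, with overlapping ranges of 203 to 322 and 206 to 314. Adamts15 made up 69.6% to 80.3% of the sum in Penk-/- and 56.9% to 70.6% in Penk+/+ colons, so Penk+/+ 1 reached the Penk-/- range.

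**Figure D3:**
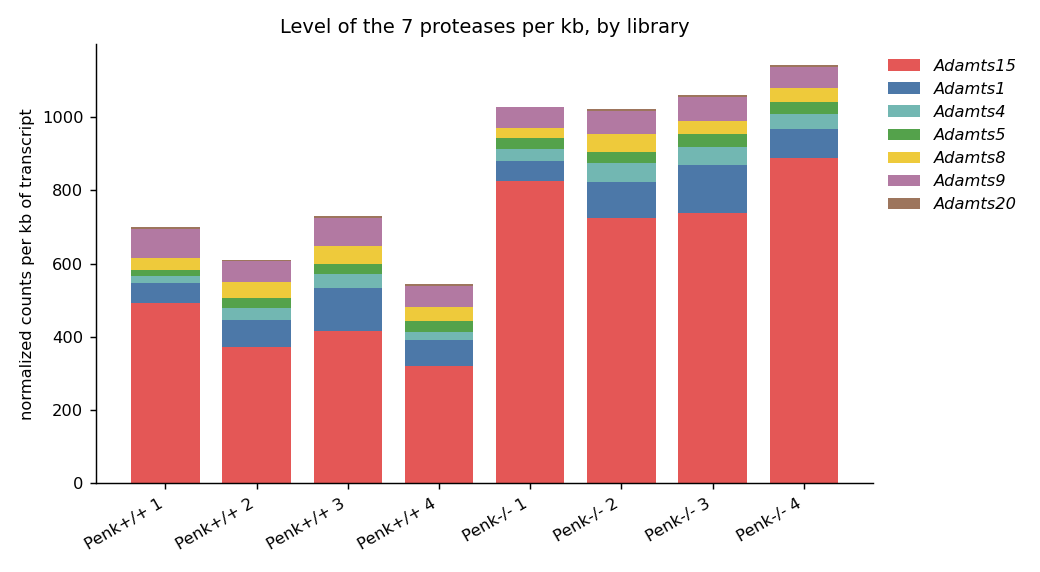
Normalized counts per kb of transcript (y axis, from 0) of the 7 proteases, stacked, for each library (x axis). The stacks reach 1022 to 1142 in Penk-/- colons and 544 to 730 in Penk+/+ colons, and the part above the Adamts15 segment is 203 to 322 and 206 to 314.

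Set against the substrate in the same library, Adamts15 separated the genotypes less clearly than alone. The ratio holds Adamts15, which was chosen on this contrast, so its genotype difference is a description and no independent result. Its normalized count was 5.17, 2.77, 3.95 and 4.63 times that of Vcan in Penk-/- mice 1 to 4 and 4.02, 2.01, 1.77 and 2.39 times in Penk+/+ mice 1 to 4. Penk+/+ 1, which had the most Adamts15 and the least Vcan of its group, lay above Penk-/- 2 and 3. On the log2 scale the ratio was 2.01 ± 0.39 and 1.27 ± 0.52 (SD, n = 4 each), a difference of 0.73 that ran from 0.59 to 0.98 when each library was left out.

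The ratios of Adamts4 and Adamts8 to Vcan had separate genotype ranges, in opposite directions. Over all genes, the ratio to Vcan gave separate ranges for 362 of 19126 (1.89%). The log2 ratio of Adamts4 to Vcan was -2.67 ± 0.20 in Penk-/- and -3.06 ± 0.09 in Penk+/+ colons, a difference of 0.39. That of Adamts8 to Vcan was -3.10 ± 0.09 and -2.69 ± 0.18, a difference of -0.41. The gaps were narrow, with a lowest Penk-/- value of -2.83 against a highest Penk+/+ value of -2.93 for Adamts4. For Adamts8 the highest Penk-/- value was -2.98 and the lowest Penk+/+ value -2.92. Both genes varied with Vcan within genotypes (r = 0.92 and 0.93), and the share over all genes is not matched for this. The ranges of each gene alone overlapped. The ratios of Adamts1, Adamts5, Adamts9 and Adamts20 to Vcan overlapped.

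**Figure D4:**
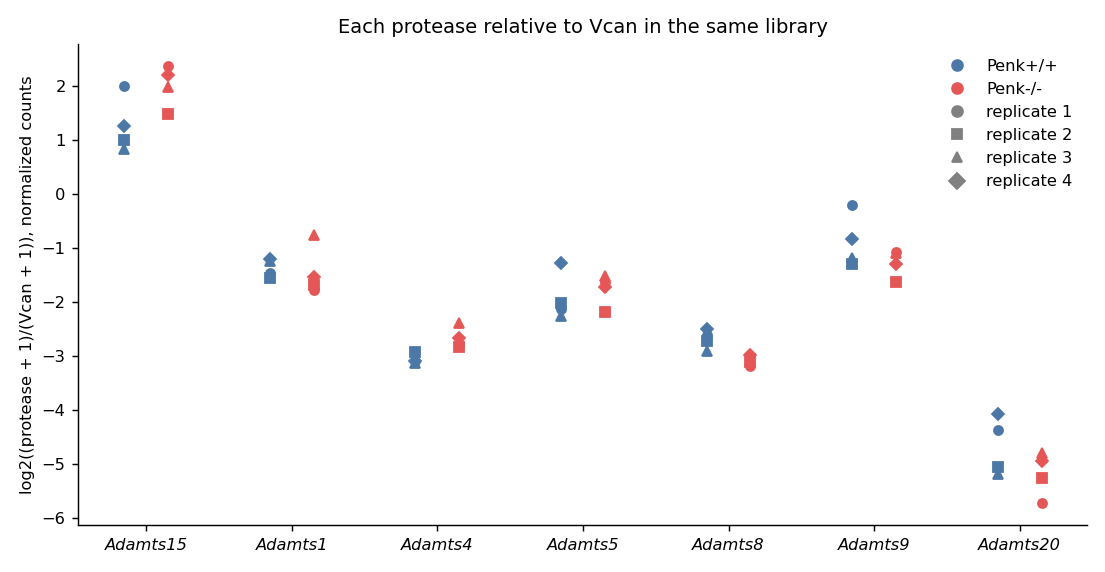
Log2 ratio of each protease to Vcan in the same library (y axis, normalized counts + 1) for the 7 proteases (x axis), with Penk+/+ libraries in blue on the left and Penk-/- libraries in red on the right of each pair. The ranges are separate for Adamts4, higher in Penk-/-, and for Adamts8, lower in Penk-/-, and overlap for Adamts15 because Penk+/+ 1 is at 2.01.

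In bulk tissue a lower number of cells of one type and less RNA per cell cannot be told apart, so the markers of the main cell types are given beside these genes. All 8 fibroblast markers were higher in Penk-/- colons with a median log2 fold change of 0.16, and their summed normalized counts were 49676.5 to 73176.5 against 39952.9 to 68897.1. Of the 8 epithelial markers 7 were lower, with a median of -0.19 and sums of 413093 to 584335 against 533938 to 640980. All 6 endothelial markers were higher (median 0.15), and 5 of 8 smooth muscle markers (median 0.09) and 5 of 8 immune cell markers (median 0.14) were higher. None of these markers passed an unadjusted p of 0.05 in limma, and none was at 0 in any library. Their part in the genotype differences was not tested. The covariate fit given next cannot tell composition from genotype, since the fibroblast and epithelial markers themselves leaned by genotype.

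With the fibroblast score minus the epithelial score of each library as a covariate, chosen after seeing the data, the log2 fold change of Adamts15 was 1.08. That of Adamts4 was 0.37, that of Adamts5 0.24 and that of Vcan 0.04. Adamts1 and Timp3 changed sign, to -0.19 and -0.09. The negative values of Adamts8 and Adamts20 moved further from 0, to -0.33 and -0.45, while Adamts9 was -0.13 and Bcan -0.09.

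The members also differed in how they varied among mice of one genotype. Each gene's log2 level was taken after subtracting the mean of its genotype and set against the marker scores treated the same way, over 8 libraries that share depth and tissue composition, and the correlations are descriptions only. With the fibroblast score, Pearson's r was 0.95 for Adamts4, 0.93 for Timp3, 0.86 for Adamts8, 0.83 for Adamts1, 0.83 for Vcan and 0.69 for Adamts5. For Adamts20 it was 0.51, for Adamts15 -0.44 and for Adamts9 -0.13. The r of Adamts15 largest in size with any cell type score was -0.68, with the endothelial score. With the epithelial score r was -0.73 for Adamts4, -0.93 for Adamts1, -0.17 for Adamts9 and 0.49 for Adamts15. Bcan had a weak negative r with both scores (-0.26 and -0.28). Library 1 of each genotype had the lowest fibroblast score of its group and above-average Adamts15.

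Among the members themselves, Adamts4 and Vcan varied together (r = 0.92), as did Adamts8 and Vcan (r = 0.93) and Adamts4 and Timp3 (r = 0.87). Adamts15 varied against Adamts5 (r = -0.82), with Adamts9 (r = 0.61), and little with Vcan (r = -0.20). Adamts15 and its neighbour Adamts8 had r = -0.32, and the adjacent genes Adamts1 and Adamts5 had r = 0.61.

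**Figure D5:**
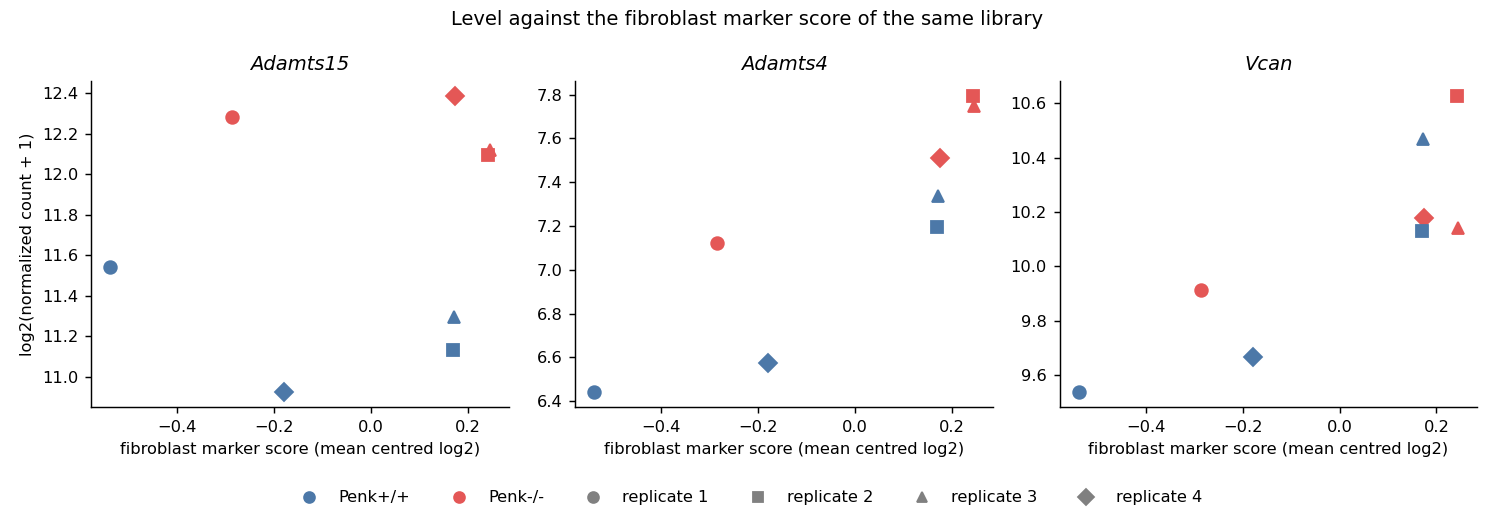
Log2(normalized count + 1) of Adamts15, Adamts4 and Vcan (y axes, not starting at 0) against the fibroblast marker score of the same library (x axis), with Penk+/+ libraries in blue and Penk-/- libraries in red. Adamts4 and Vcan are lowest in libraries with a low score. For Adamts15 the genotypes are separate, which is the difference it was chosen for, and within each genotype the library with the lowest score is not the lowest in Adamts15.

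The 5 genes whose levels varied most like Adamts15 within genotypes were Trio (r = 0.98), Trappc14 (r = 0.97), Rnf169 (r = 0.96), and the predicted genes Gm6254 (r = 0.96) and Gm20548 (r = 0.96), over 8 libraries. An r above 0.9 with Adamts15 was reached by 63 of 19039 genes (0.331%). The 5 genes named are the highest of all these. Over 8 libraries high r values also arise by chance, so those of the 5 genes are a description only. Their genotype differences were smaller than that of Adamts15, with log2 fold changes of -0.10 for Trio, 0.18 for Trappc14, -0.11 for Rnf169, 0.52 for Gm6254 and 0.21 for Gm20548 and adjusted p (limma) between 0.469 and 0.833.

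The other 12 ADAMTS proteases, which process procollagens, von Willebrand factor and other proteins, were all tested and none passed an unadjusted p of 0.05. Of these, 9 were higher and 3 lower in Penk-/- colons with a median log2 fold change of 0.14. The most abundant were Adamts10, a fibrillin-binding member, at 714 in Penk-/- and 584 in Penk+/+ colons, and Adamts2, a procollagen N-proteinase, at 612 and 554. Adamts18 alone of the 12 had separate ranges, as 5.63% of all genes did, at 13.1, 14.9, 15.3 and 57.5 in Penk-/- colons and 11.2, 11.4, 12.3 and 11.1 in Penk+/+ colons. Its higher mean in Penk-/- colons came largely from Penk-/- 4, and the log2 fold change of 0.78 had a standard error of 0.43 (limma, adjusted p = 0.614). The 7 ADAMTS-like proteins, which lack the protease domain, had a median of 0.06 with 5 higher, and their most abundant members Thsd4 and Adamtsl4 had log2 fold changes of 0.06 and 0.09.

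The hyaluronan and proteoglycan matrix around versican gave 12 genes higher and 3 lower among 15 tested, with a median log2 fold change of 0.21 and none below an unadjusted p of 0.05. Its most abundant members were Itih5, which encodes a hyaluronan-binding heavy chain, at 23006 in Penk-/- and 24498 in Penk+/+ colons (log2 fold change -0.09), and Tnc, which encodes the versican-binding glycoprotein tenascin-C, at 4030 and 3450 (log2 fold change 0.23). Acan, the aggrecan gene, was on this list but was not found by symbol in the deposited values.

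Among inhibitors, clearance receptors and activating convertases, 2 of 9 tested genes were below an unadjusted p of 0.05, against 9.63% of all genes. Each was higher in Penk-/- colons, as were 4.3% of all genes at that p. Timp1, an inhibitor of matrix metalloproteinases, was 64.6, 64.1, 71.2 and 60.8 in Penk-/- colons and 26.1, 40.9, 36.8 and 44.6 in Penk+/+ colons. All 4 Penk-/- libraries lay above all 4 Penk+/+ libraries, as for 2.89% of all genes, and the log2 fold change was 0.82 with a standard error of 0.20 (limma, adjusted p = 0.339). Timp4 was 315, 316, 259 and 325 against 233, 297, 222 and 177, with overlap at Penk-/- 3, and had a log2 fold change of 0.40 (limma, adjusted p = 0.458). The 2 most abundant genes of the list were Sdc4, a heparan sulphate proteoglycan of the cell surface, with a log2 fold change of -0.11, and Lrp1, the endocytic receptor that clears several of these proteases, with 0.03.

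Of the 23 matrix metalloproteinases and ADAMs tested, 13 were higher and 10 lower in Penk-/- colons with a median log2 fold change of 0.02. Below an unadjusted p of 0.05 were 2 of the 23, against 9.63% of all genes, namely Mmp28, which encodes epilysin, at 236 and 171 (log2 fold change 0.47, limma adjusted p = 0.358), and Mmp14, a membrane-bound collagenase, at 2848 and 2462 (log2 fold change 0.21, limma adjusted p = 0.488). Both were higher in Penk-/- colons, as were 4.3% of all genes at that p. The most abundant members Adam10 and Mmp15 had log2 fold changes of -0.10 and -0.05.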

How the data were processed

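RNA from colon of 4 Penk-/- and 4 Penk+/+ marrow chimeras was measured by paired-end, stranded poly-A RNA-seq. Per the study's methods, the authors aligned and quantified reads with STAR 2.7.8a on GRCm39 and used DESeq2 1.30.0; the strand setting of the counting is not given in the sources used here. The deposited values are a normalized signal, gene counts divided by 1 size factor per library. In all 8 libraries 100% of values were whole multiples of the smallest value above 0 (tolerance 1e-06), which gave 33122556 to 50677005 reads per library. Counts of any 2 libraries differed by a chi-square of at least 10.2 per degree of freedom. Gene symbols were found in GENCODE M39 for 25776 of 26008 identifiers.

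Here log2(value + 1) was tested with limma 3.58.1 (R 4.3.3, trended, two-sided) over 19127 genes with a mean of at least 10, with Benjamini-Hochberg adjustment; fold changes on this scale understate changes of low genes. The planned count models, edgeR 4.0.16 and DESeq2 1.42.0, and TMM scaling were run on reads of 7 libraries, without Penk-/- 1. A check of units refused this library because its size factor, 0.990, is close to 1. Its values were nonetheless whole multiples like those of the other libraries. The limma step was tested on simulated data. Scores are means of centred log2 values over a marker list. The genes named are the 10 members, genes of the fixed lists below an unadjusted p of 0.05 or with separate genotype ranges, the 2 most abundant of each functional list, the 5 genes most correlated with Adamts15 within genotypes, and Penk; Pbsn, Mmp7 and Hapln4 were named after their values were seen. Members and lists were chosen with earlier results of these data known. Each library is 1 mouse. Normalization, pseudocount, filter, trend, replicate block and left-out libraries were varied. Sequences were read from the GRCm39 genome with GENCODE M39 in Python 3.11.15.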

Additional observations from a re-analysis of the deposited data

Results flagged for a closer look

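Within groups of 4 libraries, the lowest or highest library was examined for each member and marker score, 48 groups in all, of which 2 had a library far from the others and about 2.4 would at a chance rate of 1 in 20. Adamts20 was lowest in Penk-/- 1, at 17.2 normalized counts, with a gap to the next library of 0.843 of the group's range. The fibroblast marker score was lowest in Penk-/- 1 as well, at -0.29, with a gap of 0.868 of the range.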

How the results depend on the processing

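The log2 fold changes of Adamts15, Adamts4, Adamts5, Adamts8, Adamts9 and Vcan kept their sign under all 21 alternatives, with ranges of 0.90 to 1.11, 0.37 to 0.81, 0.21 to 0.54, -0.33 to -0.0008, -0.25 to -0.04 and 0.04 to 0.44. Leaving out 1 library gave -0.012 (without Penk-/- 3) to 0.41 for Adamts1, -0.0038 (without Penk+/+ 1) to 0.18 for Timp3, -0.31 to 0.069 (without Penk-/- 2) for Bcan and -0.36 to 0.033 (without Penk-/- 1) for Adamts20. Without Penk-/- 1, Adamts20 was also 0.027 in edgeR, 0.016 in DESeq2 and 0.038 after TMM scaling. Without the Pbsn-rich pair Adamts1 was -0.051 and Timp3 -0.017, and with the fibroblast-minus-epithelial covariate -0.19 and -0.091. Adamts20 and Bcan were not tested at a mean of at least 50.

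The number of genes at an adjusted p of 0.05 was 0, and 1 with quantile normalization or the covariate. Leaving out 1 library gave 0 to 6, the 6 without Penk-/- 1, and on reads of those same 7 libraries edgeR gave 5, TMM with limma 6 and DESeq2 315; why the tools differ was not tested. Genes of the 5 functional lists at an unadjusted p of 0.05 numbered 4 of 66 tested (6.06%, against 9.63% of all genes), 8 with the covariate, 2 to 6 when 1 library was left out (2 without Penk-/- 2, Penk-/- 4 or Penk+/+ 4) and 10 in DESeq2. The genotype difference of the log2 ratio of Adamts15 to Vcan was 0.59 to 0.98, a description only, since Adamts15 was chosen on this contrast. The covariate, total scaling and removal of the Pbsn-rich pair were added after seeing the data; total scaling moved the median gene to 0.07.

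Same-numbered libraries of the 2 groups correlated at 0.15, -0.04, -0.32 and -0.16 in their deviations over all genes tested. These correlations cannot decide whether the numbers pair the mice, and the labels give only replicate numbers. With a replicate block, 1 gene passed the adjusted threshold, 2938 against 1842 the unadjusted one, and 11 list genes. Sequencing depth was high for Adamts15 but limits Adamts20, Bcan and Adamts18, which had few reads, and 4 mice per group limit all comparisons.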

Other observations

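The remaining marker lists held no gene below an unadjusted p of 0.05 in limma. All 4 adipocyte markers were higher in Penk-/- colons, with a median log2 fold change of 0.95 and summed normalized counts of 358 to 3313 against 187 to 1397. All 4 were highest in the Pbsn-rich library Penk-/- 3, where Adipoq was 1210 against 130 to 401 in the other Penk-/- colons. The standard errors of their log2 fold changes were 0.65 to 0.88. Of the 5 mesothelial markers 4 were lower (median -0.26), of the 9 enteric neuron and glia markers 6 were lower (median -0.05), and of the 4 prostate and accessory gland markers 2 were lower (median -0.04).

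A pair of genes around the versican network followed the Pbsn-rich libraries rather than the genotype. Mmp7, which encodes matrilysin, was 0, 718, 9129 and 431 in Penk-/- colons and 1162, 167, 2.04 and 8712 in Penk+/+ colons. Hapln4, which encodes a hyaluronan link protein, was 3.03, 6.87, 81.4 and 7.73 against 17.4, 2.85, 3.07 and 84.9. Both were chosen after their values were seen, and both were highest in Penk-/- 3 and Penk+/+ 4. Adamts20 varied with the prostate marker score within genotypes (r = 0.71, 8 libraries, a description only), and Adamts15 did not rise with it (r = -0.36). Penk-/- 1, flagged for its low Adamts20, had a prostate score of -6.65 and an Adamts20 deviation of -0.84. Penk+/+ 3 had a similar score of -6.59 but an Adamts20 deviation of 0.006. The r of Adamts20 was higher with the matrix metalloproteinase and ADAM list (0.88) and the hyaluronan and proteoglycan list (0.85).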
